A study of Mus musculus with 7 samples.

Results

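Plasma cells are the antibody-secreting end stage of the B cell lineage, and 10 genes of their identity and secretory machinery (Jchain, Mzb1, Sdc1, Xbp1, Prdm1, Irf4, Tnfrsf17, Derl3, Fkbp11 and Txndc5) were followed through RNA sequencing libraries of hematopoietic progenitors. All 10 were found by symbol among the 48440 genes of the normalized count table. The list was chosen by measured values, since Jchain and immunoglobulin levels in these libraries were already known when it was drawn up, so the levels of its members are given as a description. The libraries were made from LSK cells, the lineage-negative, Sca1-positive and cKit-positive cells of the bone marrow (BM), a fraction that holds the hematopoietic stem cells and multipotent progenitors. They were sorted from C57BL/6 recipients that had received 9.5 Gy in 2 doses and then unfractionated BM of either wild-type donors (4 libraries) or donors with a constitutive, endonuclease-made PROSER1 KO (3 libraries), and harvest was at day 77. The question of the comparison was how loss of PROSER1, a protein that interacts with the TET DNA demethylases, changes expression in LSK cells.

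Antibody secretion puts a heavy load of folding proteins on the endoplasmic reticulum (ER). In the B cell lineage, IRF4 and BLIMP1 (the product of Prdm1) drive the change from B cell to plasma cell and XBP1 enlarges the ER. XBP1 acts in the unfolded protein response, in which the sensor IRE1 removes an intron from Xbp1 mRNA in the cytoplasm, and the product of the spliced mRNA turns on genes for chaperones and for the disposal of misfolded proteins. ATF6, another sensor, binds the ER stress response element (ERSE) together with NF-Y. The values used here are sums over a whole gene, so spliced and unspliced Xbp1 mRNA could not be told apart.

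Promoter sequences are shown first, with the motifs of this response. RefSeq promoter windows (GRCm38.p6, 250 bases before to 50 after each start) were matched for 9 of the 10 members (all but Mzb1), in 12 windows. The ERSE was searched as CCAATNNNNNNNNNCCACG on both strands and was found in 39 of 32851 windows of all genes (0.119%). Among the members it was found in Derl3 alone, on the reverse strand of the gene, with the first base of the match at -156 from the start. The core of the unfolded protein response element, TGACGTGG, was found in 222 windows (0.676%), and among the members in 1 of the 3 windows of Txndc5, at -138. Letters are shared between both motifs, since the last bases of the ERSE also begin CCACGTCA, the reverse complement of the core. The bases before the start are given 5′ to 3′ in the direction of the gene, with a match in capitals, for Jchain because it was the most abundant member, and for the members with a match. They lie at chr5:88527898-88528147 (reverse strand), chr10:75893148-75893397 (forward strand) and chr13:38527915-38528164 (reverse strand).
Jchain: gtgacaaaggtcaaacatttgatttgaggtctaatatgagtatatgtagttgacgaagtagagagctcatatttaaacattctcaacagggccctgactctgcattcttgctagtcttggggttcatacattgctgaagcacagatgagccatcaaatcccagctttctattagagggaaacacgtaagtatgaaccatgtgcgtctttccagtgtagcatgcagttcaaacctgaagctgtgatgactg
Derl3: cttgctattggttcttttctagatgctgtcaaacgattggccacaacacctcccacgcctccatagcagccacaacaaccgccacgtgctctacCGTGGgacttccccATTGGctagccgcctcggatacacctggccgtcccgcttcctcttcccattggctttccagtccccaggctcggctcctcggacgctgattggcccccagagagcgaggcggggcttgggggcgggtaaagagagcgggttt
Txndc5: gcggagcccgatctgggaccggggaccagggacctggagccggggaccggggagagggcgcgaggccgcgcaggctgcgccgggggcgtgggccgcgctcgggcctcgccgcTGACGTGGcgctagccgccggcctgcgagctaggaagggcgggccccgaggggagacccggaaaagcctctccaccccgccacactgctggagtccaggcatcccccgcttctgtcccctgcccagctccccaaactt

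Genes of the wider secretory pathway held the ERSE in 9 of 74 windows (12.2%), which belonged to 9 of the 68 genes of that list with a window (Calr, Canx, Creld2, Dnajc3, Ero1b, Hsp90b1, Hspa5, Pdia6 and Syvn1). A match in these letters is a description of the window and not a mapped binding site. The sites of Derl3 and of 5 genes whose levels are given below are set under each other, each read along the strand that carries the motif, with the fixed letters in capitals.
Derl3, chr10:75893242-75893260 (-): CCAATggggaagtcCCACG
Hspa5, chr2:34772025-34772043 (+): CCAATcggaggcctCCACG
Hsp90b1, chr10:86705638-86705656 (-): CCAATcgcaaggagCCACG
Hsp90b1, chr10:86705533-86705551 (+): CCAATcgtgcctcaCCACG
Pdia6, chr12:17266491-17266509 (+): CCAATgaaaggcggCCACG
Creld2, chr15:88819520-88819538 (-): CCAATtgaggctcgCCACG
Calr, chr8:84847075-84847093 (+): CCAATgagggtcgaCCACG

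Further motifs of B cell and plasma cell factors were also counted. The composite element bound by IRF4 or IRF8 with PU.1, searched as GGAANNGAAA, was in 2.72% of all windows and in none of the 12 member windows. An E-box of the kind bound by E2A (CAGGTG) was in 20.2% of all windows and in those of Derl3, Jchain, Prdm1 and Xbp1. The octamer ATGCAAAT, bound by OCT1 and OCT2, was in 1.74% of all windows and in 0 of the 12. All were searched on both strands, and nothing about a factor follows from a missing match in these short windows.

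Each library held between 33143619 and 45140743 read pairs assigned to genes, and a count of 0 allows 3 read pairs, or a normalized count of 2.54 to 3.48 (counting error only). Proser1, the targeted gene, had normalized counts of 2019.4, 2153, 2103 and 2077 in the wild-type and 2464, 2359 and 2338 in the PROSER1 KO libraries. Its mRNA was therefore not lower in the libraries labelled PROSER1 KO, the KO was not visible at the level of gene counts, and every direction below rests on the labels. Kit (25535 to 32357) and Ly6a, which encodes Sca1 (3961 to 6822), are the antigen genes of the gate and were high in all 7 libraries. Replicates are labelled as biological, and p-values measure the spread between these libraries. Of the 16251 genes that averaged 10 or more normalized counts, limma called 42 (0.258%) at an adjusted p under 0.05 and a fold change above 1.5, of which 20 (0.123%) were higher and 22 (0.135%) lower in PROSER1 KO.

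All 10 members were expressed in every library, and all 10 had their highest level in the same one, wild-type replicate 4. Between the groups 0 of the 10 were called by limma, edgeR or DESeq2 (unadjusted p under 0.05 in 0, 0 and 1), and each had wild-type and PROSER1 KO values that overlapped. Groups free of overlap were seen in 10% of all genes tested (1625 of 16251). The fold changes of all 10 were below 0 on the log2 scale in PROSER1 KO, with a median of -0.31, and this shared sign rested partly on wild-type replicate 4. Without that library 7 of 10 remained below 0, with a median of -0.11. In a bulk library, fewer cells of a type and less RNA per cell cannot be told apart.

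**Figure D1:**
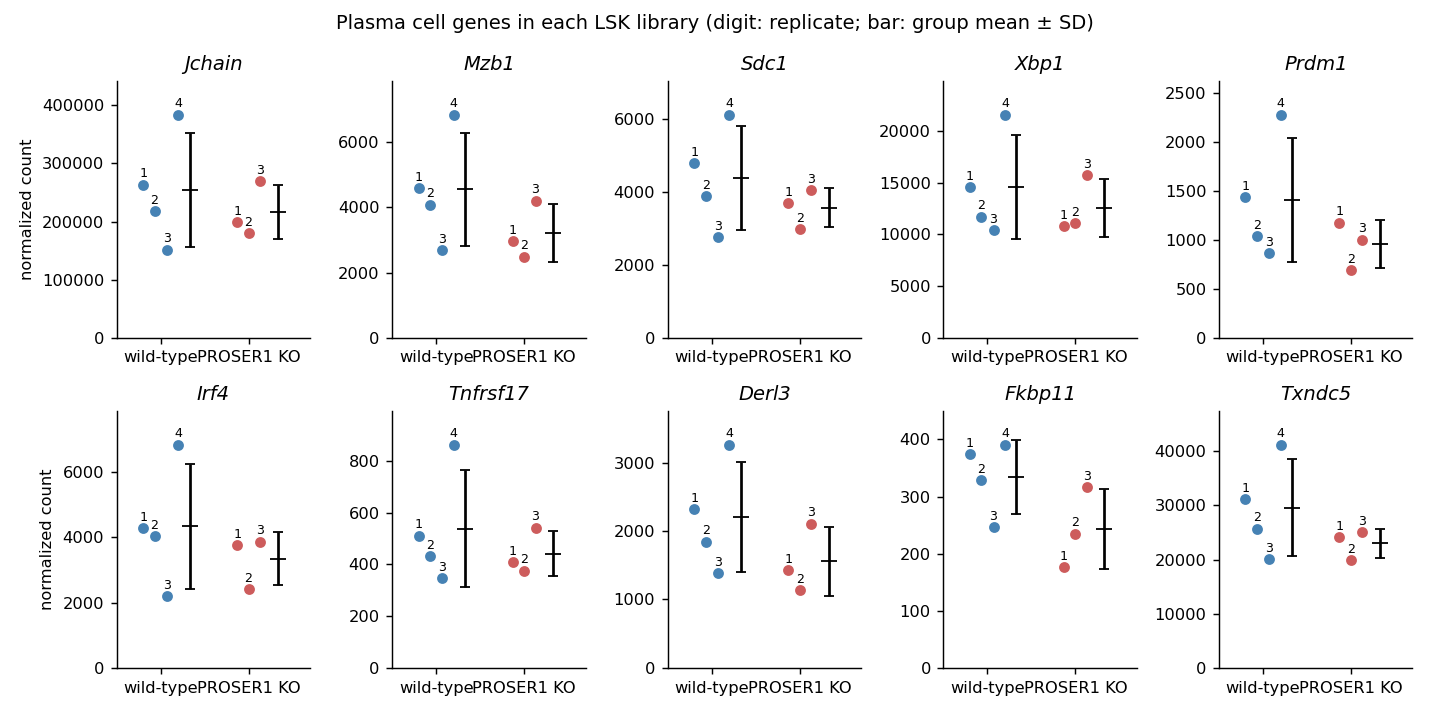
Normalized counts of the 10 plasma cell genes (vertical axes, linear from 0, a separate scale for each gene) in the 4 wild-type (blue) and 3 PROSER1 KO (red) LSK libraries. Digits give the replicate number, and the black bars are group means ± SD (n = 4 and n = 3); wild-type replicate 4 is the highest point in all 10 panels and the groups overlap in each.

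Jchain encodes the joining chain that links IgM and IgA into multimers. It had 263799, 217345, 151607 and 384345 normalized counts in the wild-type libraries (replicates 1 to 4, the order used throughout) and 199467, 179939 and 269328 in those of PROSER1 KO (replicates 1 to 3). The lowest and the highest values were both wild-type, and the PROSER1 KO libraries lay between them. The wild-type mean was 254274 ± 98173 (SD, n = 4) and the PROSER1 KO mean 216244 ± 46997 (SD, n = 3), with a log2 fold change of -0.17 (SE 0.27, limma adjusted p = 0.890). Mzb1, an ER protein of B cells and plasma cells that assists the assembly of IgM, had 4580.2, 4085, 2677 and 6848 normalized counts in wild-type LSK and 2956, 2489 and 4206 in PROSER1 KO. PROSER1 KO replicate 2 was the lowest and wild-type replicate 3 the next. The log2 fold change of Mzb1 was -0.45 (SE 0.28, limma adjusted p = 0.639). Mzb1 overlaps Spata24 on the same strand, and counts of the shared stretch are uncertain.

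Sdc1 encodes syndecan-1 (CD138), the proteoglycan by which plasma cells are commonly sorted, and Tnfrsf17 encodes BCMA, the receptor for the survival factors APRIL and BAFF. Normalized counts of Sdc1 were 4788, 3874, 2757 and 6121 in wild-type LSK and 3689.7, 2975 and 4043 in PROSER1 KO. Those of Tnfrsf17 were 512, 431, 348 and 862 in wild-type LSK and 408, 376 and 542 in PROSER1 KO. In both genes wild-type replicate 3 was lowest, and all PROSER1 KO values fell inside the wild-type range. The log2 fold changes were -0.25 for Sdc1 (SE 0.23, limma adjusted p = 0.772) and -0.22 for Tnfrsf17 (SE 0.27, limma adjusted p = 0.850).

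The transcription factors were Xbp1, Prdm1 and Irf4. Xbp1 had 14553, 11705, 10371 and 21583 normalized counts in wild-type LSK and 10799, 11074 and 15734 in PROSER1 KO, with every PROSER1 KO value inside the wild-type range. Its log2 fold change was -0.18 (SE 0.23, limma adjusted p = 0.857). Prdm1, a repressor of the B cell program, had 1436, 1038, 863 and 2279 in wild-type LSK and 1175, 689.6 and 1001 in PROSER1 KO, and PROSER1 KO replicate 2 lay below all wild-type libraries. Prdm1 had the widest range of the members, 3.30-fold from lowest to highest, and a log2 fold change of -0.49 (SE 0.30, limma adjusted p = 0.647). Irf4 had 4271, 4033, 2194 and 6832 in wild-type LSK and 3754, 2405 and 3868 in PROSER1 KO, so that wild-type replicate 3 was lowest and PROSER1 KO replicate 2 next to it. The log2 fold change of Irf4 was -0.29 (SE 0.32, limma adjusted p = 0.816).

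Derl3, Fkbp11 and Txndc5 belong to the ER machinery. Derl3, a derlin that takes part in the removal of misfolded proteins from the ER and the member with the ERSE shown above, had 2320.4, 1844, 1387 and 3260 normalized counts in wild-type LSK and 1425, 1136 and 2108 in PROSER1 KO. Its log2 fold change was -0.48 (SE 0.28, limma adjusted p = 0.621). Fkbp11, an ER peptidyl-prolyl isomerase, had 374, 328, 246 and 391 in wild-type LSK and 176, 235 and 316 in PROSER1 KO. It differed from the other members in its lowest library, PROSER1 KO replicate 1, and had the smallest adjusted p of the 10 (log2 fold change -0.48, SE 0.22, limma adjusted p = 0.521). Txndc5, a protein disulfide isomerase, had 31153, 25717, 20127 and 41180 normalized counts in wild-type LSK and 24088, 19848 and 24987 in PROSER1 KO, a log2 fold change of -0.32 (SE 0.20, limma adjusted p = 0.653). Bmp6 overlaps Txndc5 on the other strand and reached no more than 286 normalized counts in any library.

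**Figure D2:**
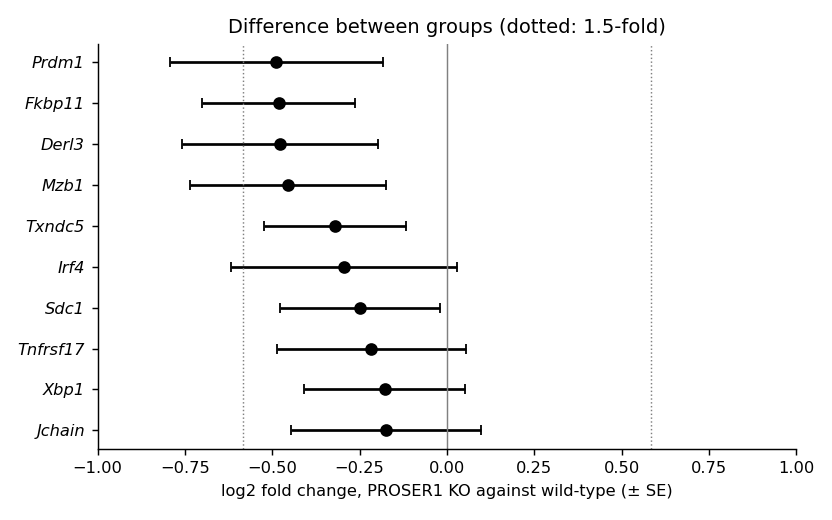
Log2 fold change of each plasma cell gene (horizontal axis, PROSER1 KO against wild-type; 4 and 3 libraries), with bars of ± 1 SE from limma. All 10 points lie below 0, between -0.49 (Prdm1) and -0.17 (Jchain), and none reaches the dotted lines that mark a 1.5-fold change.

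Compared per kilobase of exon, which allows levels of different genes to be set side by side, Jchain stood far above the rest with a mean of 94547 normalized counts per kb. Txndc5 (5950.3), Xbp1 (4214) and Mzb1 (3273) followed in this order in all 7 libraries, although their ranges over libraries overlapped. A step without overlap separated Mzb1 from Sdc1 (1059), Derl3 (966), Irf4 (797) and Tnfrsf17 (609.9). Sdc1 was above Derl3, and Derl3 above Irf4, in 6 of 7 libraries each. Prdm1 (217) and Fkbp11 (109) were lowest, and Prdm1 was the higher one in all 7 libraries.

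The spread of the members among libraries was wide. The median SD of the 10 genes over the 7 libraries was 0.44 on the log2 scale, and the SD of single members lay at percentiles 75.8 to 86.4 of all tested genes. Wild-type replicate 4 set the upper end in 10 of 10 members, against 18.3% of all tested genes with their highest value there. The list was drawn up with Jchain levels known and its members vary together, so this count is a description only. At the lower end stood wild-type replicate 3 for 5 members (Jchain, Sdc1, Xbp1, Irf4 and Tnfrsf17), PROSER1 KO replicate 2 for 4 (Mzb1, Prdm1, Derl3 and Txndc5) and PROSER1 KO replicate 1 for Fkbp11. The wild-type group alone therefore spanned 2.54-fold for Jchain, while the group means differed by less (PROSER1 KO at 0.85 of wild-type).

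Levels of the members varied together over the 7 libraries. Pearson's r with Jchain ran from 0.73 for Fkbp11 to 0.98 for Tnfrsf17 and Spearman's rho from 0.71 for Prdm1 to 1 for Tnfrsf17 (n = 7 libraries, which share the size factor of each library). Without the 2 libraries farthest from the median of Jchain, wild-type replicates 3 and 4, r lay between 0.65 and 0.99. Over all 45 pairs of members r had a median of 0.93, with a range of 0.57 to 0.99. Counting Jchain itself, whose r is 1 by definition, 8 of the 10 members had an r with Jchain above 0.9, a value that 192 of all tested genes reached (1.18%). The list was drawn up with Jchain levels known, so this count is a description only.

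**Figure D3:**
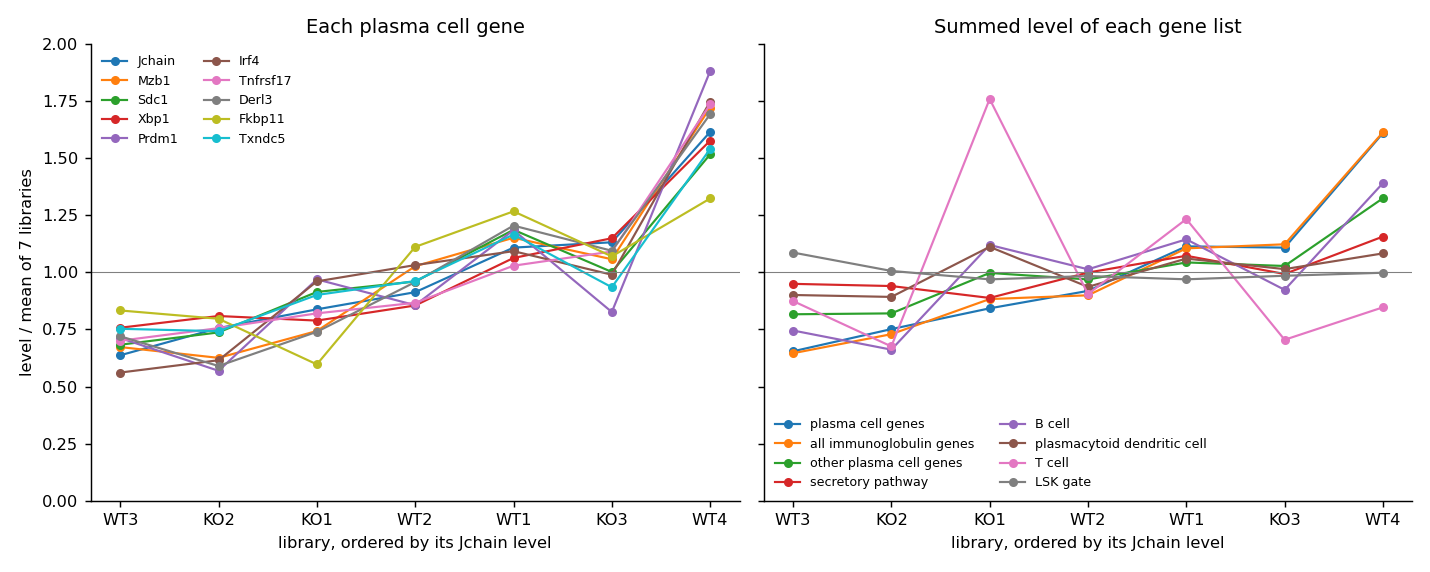
Level of each plasma cell gene (left) and summed level of each gene list (right), divided by its mean over the 7 libraries (vertical axis, linear), with libraries ordered by Jchain (WT, wild-type; KO, PROSER1 KO; digit, replicate). The summed plasma cell genes, mostly Jchain, run from 0.65 in WT3 to 1.61 in WT4 and lie near the line of all immunoglobulin genes. The list was drawn up with both levels known. The LSK gate list stays near 1.

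Immunoglobulin genes had the same profile. All immunoglobulin genes together took 5.15% of read pairs in wild-type replicate 3 and 12.03% in wild-type replicate 4, and the 10 members took 0.506% and 1.16%. Relative to the mean of the 7 libraries, both sums were at 0.65 and 1.61 in these libraries. Jchain, by far the most abundant member, was alone at 0.64 and 1.62, so the sum of the members mostly follows it. The list was drawn up with Jchain and immunoglobulin levels known, so this likeness is a description only. Igkc, the kappa light chain constant gene, had 588445, 525555, 379411 and 911098 normalized counts in wild-type LSK and 518193, 414733 and 664553 in PROSER1 KO, and r with Jchain was 0.99. Ighm, the constant gene of IgM, had 1568040, 1279120, 830464 and 1890110 in wild-type LSK and 1137840, 687394 and 947499 in PROSER1 KO, with a log2 fold change of -0.56 (SE 0.28, limma adjusted p = 0.554). The classes did not all follow it. Igha, the constant gene of IgA, had 149141, 100887, 161448 and 515047 in wild-type LSK and 217504, 407796 and 745391 in PROSER1 KO (log2 fold change 1.10, SE 0.54, limma adjusted p = 0.548), and r with Jchain was 0.45. Ighg2c, the constant gene of IgG2c, had a log2 fold change of 0.94, and the lambda genes Iglc1 and Iglc3 had values of -0.66 and -0.89. None of the 11 immunoglobulin constant genes tested was called by limma or edgeR, with 0 and 1 at an unadjusted p under 0.05, nor any of 12 by DESeq2 (0).

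Gene lists of other cells of the marrow were measured beside the members, and their part in the results was not tested. Summed levels of the 10 LSK gate genes varied 1.12-fold over the 7 libraries, against 2.46-fold for the members. The sums varied 1.25-fold for plasmacytoid dendritic cell genes, 1.25-fold for granulocyte and monocyte genes, 1.40-fold for macrophage genes and 1.60-fold for erythroid genes. A sum mostly follows its most abundant genes, and single genes could differ from it. Ly6a of the gate varied 1.72-fold with an r with Jchain of 0.98, where the median r of its list was -0.18. Ly6d of the plasmacytoid dendritic cell list varied 2.53-fold, was highest in wild-type replicate 4 and had an r of 0.97 (list median 0.25). In each of these lists 1 gene had an r above 0.9. T cell genes varied 2.60-fold with their highest sum in PROSER1 KO replicate 1, a library in which the members stood at 0.84 of their mean. None of the 56 marker genes tested by limma and edgeR, or of 57 by DESeq2, was called. An unadjusted p under 0.05 was seen in 4 by limma (8 by edgeR, 7 by DESeq2), against 9.73% of all tested genes by limma. By DESeq2, 1 granulocyte and monocyte gene had an adjusted p under 0.05, with a fold change below the 1.5-fold threshold. In all 7 libraries Klk1 of the plasmacytoid dendritic cell list was at 0. The 20 B cell genes varied 2.10-fold in sum and were highest in wild-type replicate 4, with 10 fold changes above 0 and 10 below. None was called by limma, edgeR or DESeq2 (unadjusted p under 0.05 in 5, 6 and 4, against 9.73% of all tested genes by limma). Of the 5 by limma, 4 were higher in PROSER1 KO and 1 was lower. All 4 had their highest value in PROSER1 KO replicate 1. Fcer2a, which encodes CD23, had the lowest log2 fold change (-1.18, limma adjusted p = 0.204) and Ms4a1, which encodes CD20, the next (-0.61, limma adjusted p = 0.540). Igll1, a surrogate light chain gene of B cell precursors, had the highest (1.58, limma adjusted p = 0.288), followed by Pax5, the B lineage factor (0.99, limma adjusted p = 0.497). The median r with Jchain was 0.46 for the B cell list and 0.94 for the 9 members other than Jchain.

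Levels of the members were also set against Jchain within each library, as normalized counts per 1000 of Jchain, to describe what remains once the common profile is divided out. Tnfrsf17 stayed between 1.94 and 2.30 and had a coefficient of variation of 6.45%, where its level had 35.3%. Xbp1 lay between 53.9 and 68.4 per 1000, and its group means were 58.4 ± 6.74 (SD, n = 4) and 58.0 ± 3.72 (SD, n = 3). Mzb1 and Derl3 separated the groups on this scale. Mzb1 had 17.4, 18.8, 17.7 and 17.8 per 1000 of Jchain in wild-type LSK and 14.8, 13.8 and 15.6 in PROSER1 KO. Derl3 had 8.80, 8.49, 9.15 and 8.48 in wild-type LSK and 7.14, 6.32 and 7.83 in PROSER1 KO. All PROSER1 KO values of both genes were below all wild-type values. That made 2 of 9 members whose groups did not overlap and were lower in PROSER1 KO, as in 114 of 16250 tested genes (0.702%). Over all tested genes the median r with Jchain was -0.01, and dividing such genes by Jchain adds its spread to theirs. Their share is therefore no like background for genes that follow Jchain. The same was seen in 0 of 16 other plasma cell genes (1 was higher) and in 0 of 80 secretory pathway genes. The ratio was chosen after the values had been seen and used Jchain, so no test is given. The other 7 members overlapped, among them Prdm1, with 4.77 to 5.93 per 1000 in wild-type LSK and 5.89, 3.83 and 3.72 in PROSER1 KO.

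**Figure D4:**
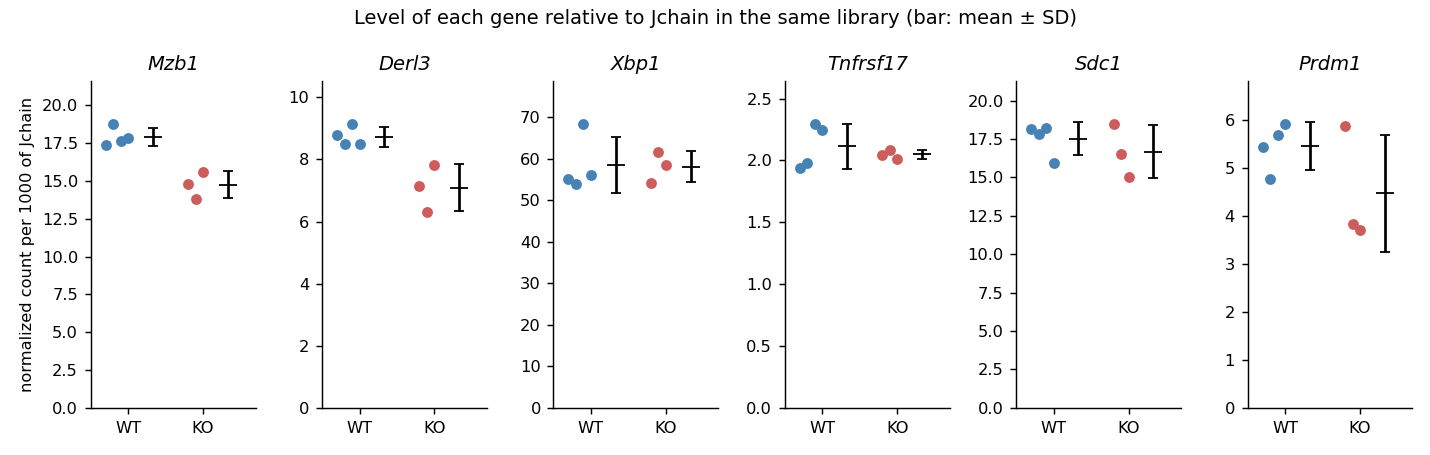
Normalized count per 1000 of Jchain in the same library (vertical axes, linear from 0) for 6 members in wild-type (WT, blue, n = 4) and PROSER1 KO (KO, red, n = 3) libraries, with means ± SD in black. The groups do not overlap for Mzb1 (13.8 to 15.6 in KO, 17.4 to 18.8 in WT) and Derl3, and overlap for Xbp1, Tnfrsf17, Sdc1 and Prdm1.

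Other plasma cell genes, a list of 16, showed the profile in part. In 12 of 16 the highest level was in wild-type replicate 4, 7 had an r with Jchain above 0.9, and none was called by limma, edgeR or DESeq2 (unadjusted p under 0.05 for 1 gene in each). The fold changes were below 0 for 10 and above 0 for 6, with a median of -0.08. Cd28, a costimulatory receptor that long-lived plasma cells carry, had 894, 768, 443 and 1362 normalized counts in wild-type LSK and 619, 416 and 726 in PROSER1 KO, with a log2 fold change of -0.49 (SE 0.33, limma adjusted p = 0.678). Eaf2, a partner of the elongation factor ELL2, had a log2 fold change of -0.46 (SE 0.28, limma adjusted p = 0.638). At the other end were Glcci1 (0.10) and Cd38, which encodes a NAD-consuming surface enzyme. Cd38 had 176, 201, 122 and 199 in wild-type LSK and 246, 209 and 288 in PROSER1 KO, so that its groups did not overlap (log2 fold change 0.52, SE 0.20, limma adjusted p = 0.440). Its r with Jchain was 0.41 (rho 0.21), so it followed the profile of the members only weakly.

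The secretory pathway and unfolded protein response were followed in 80 tested genes, from translocation into the ER to folding, quality control and export. None was called by limma, edgeR or DESeq2 at the thresholds used. Fold changes were below 0 in 71 of 80, with a median of -0.09, where the median over all tested genes was 0.0015. At an unadjusted p under 0.05 there were 14 genes, all lower in PROSER1 KO, against 9.73% of all tested genes in either direction (770 of 16251 lower and 812 higher). The same count was 15 in edgeR and 20 of 81 in DESeq2. The groups did not overlap in 9 of the 80 genes, all lower in PROSER1 KO. That share was near the 10% of all tested genes in either direction, but of those only 785 of 16251 were lower and 840 were higher. The count of 14 depended on the libraries and on the variance model. It was 7 by eBayes without trend, 6 without PROSER1 KO replicate 1, 7 without wild-type replicate 1, 9 without wild-type replicate 4 and 26 without wild-type replicate 3. These genes share the profile of the members in part, with the highest level in wild-type replicate 4 in 57 of 80 and a median r with Jchain of 0.66, and the part of plasma cell RNA in their values was not tested.

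Log2 fold changes of the 9 genes with an ERSE were all below 0 (8 of 9 without PROSER1 KO replicate 2), with a median of -0.18 and a range of -0.39 to -0.08. The median of the other 71 genes was -0.09, and 62 of them were below 0. The 9 genes also followed Jchain more closely, with a median r of 0.88 against 0.64 for the other 71. The part of plasma cell RNA in this difference was not tested. Of the 9, 4 had an unadjusted p under 0.05 (Hspa5, Pdia6, Creld2 and Calr), and the lowest adjusted p of these 4 was 0.447 by limma. Hspa5, which encodes BiP, the main HSP70 chaperone of the ER, had 24488, 19908, 20593 and 24739 normalized counts in wild-type LSK and 16442, 19125 and 20824 in PROSER1 KO. Its ranges overlapped through PROSER1 KO replicate 3 (log2 fold change -0.25, SE 0.10). Hsp90b1, the ER member of the HSP90 chaperones and the gene with both sites shown, had 33435, 30788, 25435 and 40665 in wild-type LSK and 22603, 25717 and 31698 in PROSER1 KO, a log2 fold change of -0.28 (SE 0.15). Pdia6, a protein disulfide isomerase, had 11882, 10836, 9371 and 11331 in wild-type LSK and 8027, 9741 and 9962 in PROSER1 KO, so that only wild-type replicate 3 reached the PROSER1 KO range. Creld2, an ER stress-inducible protein, had 4198, 3541, 2945 and 5012 in wild-type LSK and 2758, 2662 and 3471 in PROSER1 KO. Calr, the lectin chaperone calreticulin, had 37992, 37581, 35899 and 36530 in wild-type LSK and 29395, 35517 and 34391 in PROSER1 KO, and its groups did not overlap. Unlike the members, Calr hardly moved among the wild-type libraries, and its r with Jchain was 0.24.

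Of the remaining genes of the pathway, Sdf2l1 and Kdelr3 had the lowest fold changes. Sdf2l1, a partner of BiP in protein folding, had 2615, 2481, 2117 and 2907 normalized counts in wild-type LSK and 1337, 1890.4 and 2110.3 in PROSER1 KO, and its groups did not overlap, though by a narrow gap (log2 fold change -0.52, SE 0.15, limma adjusted p = 0.288). Kdelr3, a receptor that returns chaperones to the ER, was near the lower end of what was tested, with 14.4, 44.2, 16.1 and 51.0 in wild-type LSK and 11.5, 16.1 and 33.6 in PROSER1 KO (log2 fold change -0.53, SE 0.55). The highest fold changes were those of Fkbp7 (0.07) and Mbtps1, the protease that activates ATF6 (0.05). Manf, a secreted ER stress protein chosen after its values were seen, had the lowest adjusted p of the list, with 5303, 4477, 4484 and 5570.3 in wild-type LSK and 3483, 3979.7 and 4111 in PROSER1 KO (log2 fold change -0.36, SE 0.092, limma adjusted p = 0.209). By DESeq2 on recovered read pairs, 4 genes of the list (Dnajb11, Fkbp2, Manf and Sec24d) had an adjusted p under 0.05, the lowest being 0.0037 for Manf, with log2 fold changes of -0.46 to -0.27 that were below the 1.5-fold threshold. Without wild-type replicate 3, Fkbp2 reached a limma adjusted p of 0.047.

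**Figure D5:**
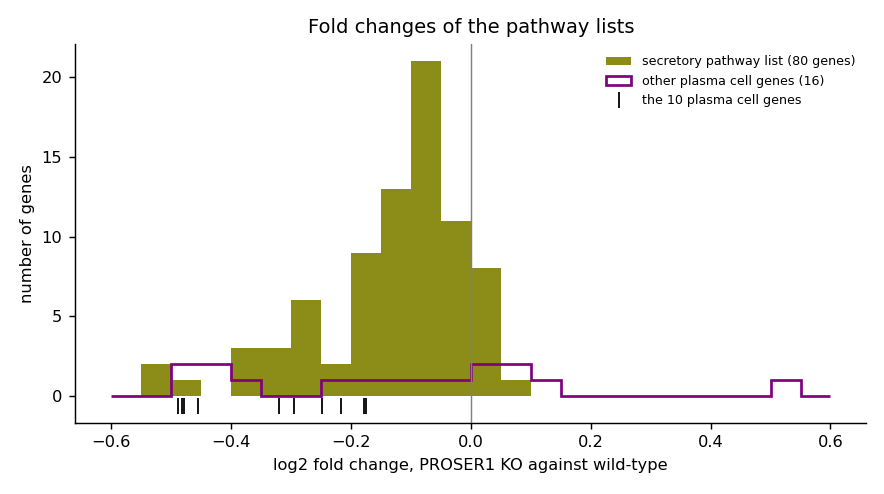
Number of genes (vertical axis) by log2 fold change in PROSER1 KO against wild-type (horizontal axis, bins of 0.05) for the 80 secretory pathway genes (filled) and the 16 other plasma cell genes (outline), with ticks for the 10 plasma cell genes. In the filled bars 71 of 80 genes lie below 0, and the ticks lie between -0.49 and -0.17.

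Among 12821 genes with a mean of at least 50, other than the members and the immunoglobulin genes, the 5 whose levels were most like Jchain over the 7 libraries were Edem1 (Pearson's r 0.996), Cacna1s (0.992), Dennd5b (0.991), St6gal1 (0.990) and Gpr55 (0.984). Edem1, which helps to extract misfolded glycoproteins from the ER, had 7805, 6756, 5070.1 and 10153 normalized counts in wild-type LSK and 6281, 5555 and 8096 in PROSER1 KO, and its libraries stood in the same order as for Jchain. St6gal1, a Golgi sialyltransferase, had 4554, 3809, 2684 and 6691 in wild-type LSK and 3823, 3449 and 4688 in PROSER1 KO. The 5 most like Xbp1 were Pon3 (0.995), Sorcs2 (0.986), Tmcc1 (0.984), Kcnk6 (0.978) and Eif2ak3 (0.975), the last of which encodes PERK, another sensor of the unfolded protein response. Pon3 had 1348, 1180.0, 1131 and 1789 in wild-type LSK and 1136, 1160.1 and 1405 in PROSER1 KO. These correlations rest on 7 libraries and were taken from the top of many genes, so they name a likeness in level only.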

How the data were processed

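LSK RNA was sequenced as read pairs from polyA-selected, strand-marked libraries. The authors trimmed reads with Trimmomatic, mapped them to mm10 (GRCm38.p6) with STAR, counted read pairs with featureCounts and scaled each library by its DESeq2 size factor. The deposited values are this normalized count signal per gene, with no filter on low values. Versions and the strand setting are not given in the sources used here, and the methods and the table name different GENCODE releases. The smallest step between values in a library gave back whole read pairs (100% of values whole within 0.01).

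limma 3.58.1 (R 4.3.3, eBayes with trend) was run on log2(normalized count + 1) for the 16251 genes averaging 10 or more, with Benjamini-Hochberg adjustment. Fold changes and SE are on that scale, which understates low genes. Genes without a symbol (685, at most 0.135% of read pairs) stayed in. The alternatives tried were no filter or a minimum of 50, pseudocounts of 0.1 and 10, eBayes without trend or robust, quantile and TMM scaling, size factors without antigen receptor genes, edgeR 4.0.16, DESeq2 1.42.0, no fold minimum, a replicate block and each library left out. The procedure was tested on simulated counts. Their spread was smaller and their set changes larger than those of the members, so that test does not bear on the members' calls. Positions and exon lengths are from GENCODE M21 (GRCm38; 48058 of 48440 IDs matched), and promoters from RefSeq.

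The members, lists, motifs and ratios were chosen with earlier results of these data known. Named genes were all members, Proser1, Igkc and Ighm, the 2 highest and 2 lowest log2 fold changes of each list, the 5 genes most like Jchain and Xbp1, and, added after values were seen, the ERSE genes, Kit, Ly6a, Manf and the secretory genes with an adjusted p under 0.05 by DESeq2 or without 1 library.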

Additional observations from a re-analysis of the deposited data

Results flagged for a closer look

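In the wild-type group, 1 of the 4 libraries lay far from the other 3 by Dixon's ratio in 4 named genes, a rule that chance meets in about 1 of 20 groups. Igha was highest at 515047 normalized counts (ratio 0.854), in wild-type replicate 4, which was also the highest library of all 10 plasma cell genes. None of the 10 plasma cell genes met the rule. The T cell genes Cd3g, at 52.9 normalized counts (ratio 0.898), and Trac, at 25.96 (ratio 0.986), and the myeloid integrin gene Itgam, at 367 (ratio 0.910), were the others. In each the highest wild-type value stood apart relative to the wild-type range, which does not make the difference large. Itgam had 301, 298 and 294 in the other wild-type libraries, and Trac had 16.2, 16.1 and 16.2. The number of groups examined is not given here, so the count of 4 is not weighed against chance. Over all 7 libraries Cd3g was highest in PROSER1 KO replicate 1, at 697, with 24.5 and 38.4 in PROSER1 KO replicates 2 and 3. Itgam was also highest in PROSER1 KO replicate 1, at 371.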

How the results depend on the processing

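Under every alternative 0 of 10 members and 0 of 80 secretory genes were called (81 without a filter and in DESeq2, 79 at a minimum mean of 50). The lowest adjusted p of a member in any of the 19 settings was 0.356. Log2 fold changes were below 0 for 7 members in all 19 settings, while those of Jchain, Xbp1 and Tnfrsf17 were 0.05, 0.03 and 0.04 without wild-type replicate 4. The members' median was -0.54 without wild-type replicate 3, where 7 members had an unadjusted p under 0.05, and 2 did without PROSER1 KO replicate 3. Over all genes, calls numbered 42, against 17 by eBayes without trend, 80 with robust eBayes and 165 by DESeq2 (80 higher, 85 lower); the cause was not tested. With 1 library left out they ranged from 23 (without PROSER1 KO replicate 2) to 42. The median SD of the members was 0.44, and 0.34 to 0.48 with 1 library left out, lowest without wild-type replicate 4. Same-numbered libraries did not deviate together (correlations 0.02, 0.06 and -0.11), so the numbers were not taken as pairs. With a replicate block, 35 genes were called over all genes, 0 members and 0 secretory genes, and 7 secretory genes had an unadjusted p under 0.05, against 14 without the block. In that fit wild-type replicate 4 has a block of its own and adds nothing. At this depth even Fkbp11, the lowest member, had at least 169 read pairs in each library, so the spread between libraries limits the comparison more than counting does.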

Other observations

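Ly6a, the gene of the Sca1 antigen used in the sort, had 5256, 4886, 4006 and 6822 normalized counts in wild-type LSK and 4471, 3961 and 5682 in PROSER1 KO, and its r with Jchain over the 7 libraries was 0.98 (rho 0.96; 0.97 without the 2 libraries farthest from the median of Jchain). Kit, the other antigen gene of the gate, had 25535, 29747, 32357 and 29093 in wild-type LSK and 25761, 29959.5 and 27723 in PROSER1 KO, and its r with Jchain was -0.39 (rho -0.57). Both genes were chosen after their values were seen, and the part of plasma cell RNA in the level of Ly6a was not tested.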
